A study of Mus musculus with 26 samples.

Results

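Brown fat releases proteins and lipid mediators, often called batokines, and the genes of 9 of them were followed in the RNA of brown adipose tissue: Fgf21, Gdf15, Il6, Nrg4, Metrnl, Epdr1, Pltp, Ptgds and Slit2. They were taken by name from the 50686 genes of the deposited count table, and all 9 passed the filter on low counts that left 17286 genes for testing. The tissue came from male C57BL/6J mice aged 12 to 16 weeks, fat-specific Afadin knockouts (labelled KO) and control littermates (labelled WT). All mice lived at thermoneutrality for 14 to 18 days, labelled 30 °C and stated as 29 °C in the study's methods, and those of the cold groups then spent 6 h at 5 °C. The groups were WT30 (n = 7), KO30 (n = 7), WT5 (n = 5) and KO5 (n = 7), 1 library per mouse. The knockout joined a floxed Mllt4 (Afdn) allele to a Cre driven by the adiponectin promoter, which is active in white as well as brown adipocytes, so the non-adipocyte cells of the depot kept the gene, and whether the controls carried Cre or the floxed allele was not given in the sources used here. The comparisons address how acute cold changes these transcripts and whether loss of afadin, a scaffold protein of cell junctions that is also phosphorylated downstream of insulin, alters them.

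Brown adipocytes burn fatty acids and glucose to produce heat when sympathetic nerves release noradrenaline, which raises cyclic AMP and induces the uncoupling protein Ucp1. The same cells signal to other organs and to neighbouring cells: Fgf21 acts on Fgfr1 with its coreceptor Klb, Gdf15 on Gfral with Ret in the hindbrain, Il6 on Il6ra with Il6st, Nrg4 on ErbB receptors, and Metrnl on Kit in the heart. Pltp moves phospholipids between lipoproteins, Ptgds makes prostaglandin D2, Slit2 is a ligand of Robo receptors that is cleaved into a thermogenic fragment, and Epdr1 is a secreted lipid-binding protein.

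Fgf21, Il6 and Gdf15 showed the largest fold changes with cold among the 9 genes, and the 250 bases before their RefSeq start sites (GRCm38.p6, the mm10 assembly) are shown for that reason, 5′ to 3′ on the strand of each gene. Capitals mark matches, on either strand, to 7 motifs searched: the cyclic AMP response element TGACGTCA, its shorter form TGACG, the Atf4 composite element TGATGNAA, the C/EBP element TTNNGCAA, the E-box CACGTG, and direct repeats of AGGTCA spaced by 1 or 4 bases.
Fgf21, chr7:45615491-45615740 (minus strand): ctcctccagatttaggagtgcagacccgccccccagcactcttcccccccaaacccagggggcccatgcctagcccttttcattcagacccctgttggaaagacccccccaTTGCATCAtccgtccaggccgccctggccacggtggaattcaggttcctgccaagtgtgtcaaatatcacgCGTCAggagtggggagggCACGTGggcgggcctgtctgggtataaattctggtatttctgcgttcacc
Il6, chr5:30012864-30013113 (plus strand): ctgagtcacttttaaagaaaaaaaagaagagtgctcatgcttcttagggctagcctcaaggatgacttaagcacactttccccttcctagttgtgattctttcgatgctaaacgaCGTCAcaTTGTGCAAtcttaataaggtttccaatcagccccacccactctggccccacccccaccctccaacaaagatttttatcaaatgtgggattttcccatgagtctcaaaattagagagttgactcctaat
Gdf15, chr8:70632457-70632706 (minus strand): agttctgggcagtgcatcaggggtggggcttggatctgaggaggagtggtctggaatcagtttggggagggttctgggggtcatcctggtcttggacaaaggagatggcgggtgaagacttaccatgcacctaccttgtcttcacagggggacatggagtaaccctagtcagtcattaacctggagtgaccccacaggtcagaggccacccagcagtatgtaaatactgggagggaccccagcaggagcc

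The Fgf21 window held the Atf4 composite element on the opposite strand, from base -139 to -132 counted from the start site, where 3.45% of 32851 RefSeq promoters of the same length hold one. It also held the shorter cyclic AMP element, found in 17.8% of promoters, and the E-box, found in 6.02%. In the Il6 window the shorter cyclic AMP element and the C/EBP element, found in 9.56% of promoters, lay next to each other between bases -135 and -121. The Gdf15 window held none of the 7 motifs in these letters. Promoters were found for 9 of the 9 genes, and the only other match was a C/EBP element before Pltp. The RefSeq start used lay 43219 bases from the annotated start of the counted gene for Nrg4, 883 for Metrnl and 297 for Ptgds. For these genes the windows do not cover the bases before that annotated start. A match of letters is a description of the sequence and was not tested for binding.

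The libraries held between 12705969 and 25732258 counted reads. Values are given as CPM, the count divided by library size after TMM scaling, which aligns the bulk of the genes between libraries. Afdn itself, the targeted gene, averaged 196 ± 21.0 CPM (SD, n = 7) in WT30 and 195 ± 27.4 CPM (n = 7) in KO30, and 73.5 ± 4.27 CPM (n = 5) in WT5 and 58.5 ± 4.15 CPM (n = 7) in KO5. The log2 difference between KO and WT was -0.01 at thermoneutrality (adjusted p = 0.992, edgeR) and -0.33 after cold (adjusted p = 0.116, edgeR), so the count over the whole gene did not show the deletion at thermoneutrality, and the group names below are those of the labels. Ucp1, the check of the treatment, went from a median of 1004 to 15960 CPM in WT and from 813 to 16651 CPM in KO. Markers of brown adipocytes (8 of 8 with reads) were high in every library, and those of mesothelium summed to between 2.65 and 14.1 CPM. The WT30 library of replicate 7 stood apart, with the highest WT30 marker sums for skeletal muscle, fibroblasts, neutrophils and red blood cells, and values of the 9 genes that it moves by over 1.5 times or across a threshold are also given without it.

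In the cold 5 of the 9 genes rose and 2 fell in WT, where 65.0% of all genes tested passed the same threshold (31.6% higher and 33.4% lower). In KO 6 rose and 2 fell, where 68.6% of all genes passed (33.7% higher and 34.9% lower). Fgf21, Gdf15, Il6, Nrg4 and Metrnl rose in both genotypes, Epdr1 rose in KO, Pltp and Ptgds fell in both, and Slit2 passed in neither. Without WT30 replicate 7 the WT counts were 6 and 2, Epdr1 being added, where 65.7% of all genes passed. Cold and thermoneutral mice did not overlap for 5 genes in WT, 3 of them higher (23.5% of all genes) and 2 lower (22.9%), nor for 5 in KO, 4 higher (21.1%) and 1 lower (19.3%). Among the 9 more rose than fell, where slightly fewer of all genes rose than fell, and these counts were not tested against those shares. The sizes of the called changes differed widely, from 1.14-fold for Nrg4 to 36.4-fold for Fgf21 in WT. The median log2 fold change of the 9 genes was 0.69 in WT and 1.05 in KO, against -0.01 and -0.03 over all genes tested. In bulk tissue, a change in the number of cells that make a transcript and a change in its amount per cell cannot be told apart.

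**Figure D1:**
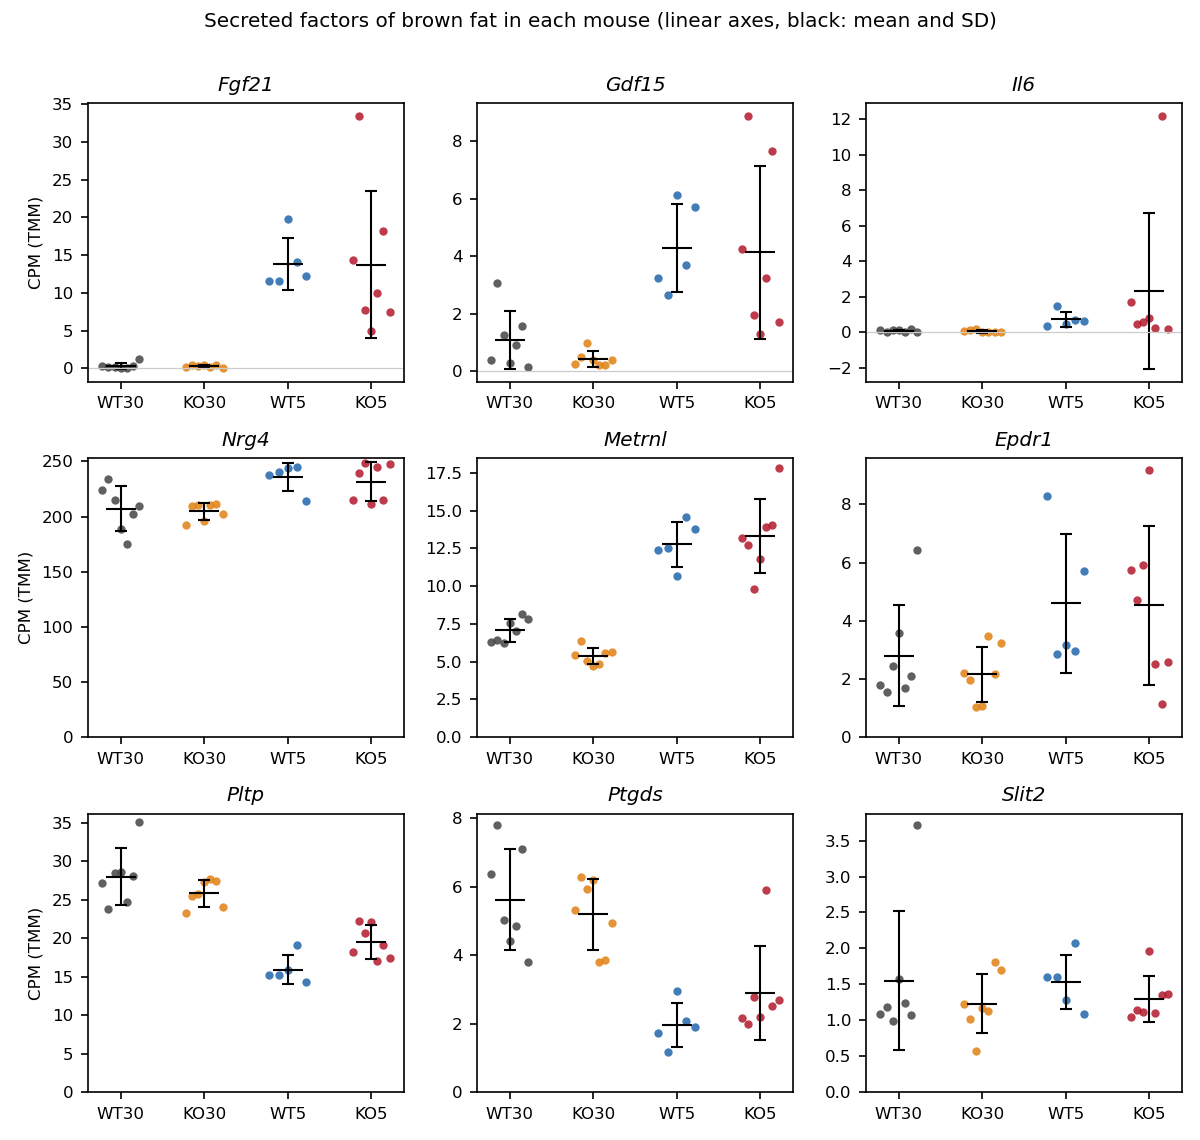
TMM-scaled CPM of the 9 genes (vertical axes, linear, 1 panel per gene) in each mouse of WT30, KO30, WT5 and KO5 (horizontal axis). Points are mice and black bars are the mean and SD. Fgf21 lies at or under 1.28 CPM in all thermoneutral mice and at or above 4.89 CPM in all cold mice, and 1 KO5 mouse reaches 12.2 CPM of Il6.

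Fgf21 (ENSMUSG00000030827.5, chr7:45613886-45615490, minus strand, mm10), an endocrine fibroblast growth factor that raises energy expenditure, had the largest response in WT and stood level with Il6 in KO, where DESeq2 put Il6 (5.67) above Fgf21 (5.55). In WT30 it ranged from 0 to 1.28 CPM with a median of 0.250, that is 0 to 28 reads per library, and in KO30 from 0.0999 to 0.472 CPM with a median of 0.291. The 5 WT5 mice had 11.5, 11.6, 12.2, 14.0 and 19.8 CPM. KO5 mice ranged from 4.89 to 33.4 CPM with a median of 10.0. The gene went from near the detection limit to at least 82 reads in every cold library, with no overlap between cold and thermoneutral mice of either genotype. On the log2 scale Fgf21 rose by 5.18 (SE 0.55, adjusted p = 7.03e-10, edgeR) in WT and 5.52 (SE 0.55, adjusted p = 1.56e-10, edgeR) in KO. WT30 replicate 7 held 28 of the 46 reads of its group, and without it the WT change was 6.15.

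Within the cold the spread of Fgf21 was wide in KO5, where 4 of 7 mice lay below the lowest WT5 mouse and 1 above the highest. The means were almost equal, at 13.8 ± 3.49 CPM (SD, n = 5) in WT5 and 13.7 ± 9.78 CPM (n = 7) in KO5. The log2 difference of KO5 from WT5 was -0.01 with a 95% interval from -0.79 to 0.77.

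Gdf15 (ENSMUSG00000038508.7, chr8:70629393-70632456, minus strand), a stress-induced cytokine of the TGF-beta superfamily that curbs appetite, was also low at thermoneutrality. WT30 mice ranged from 0.138 to 3.06 CPM with a median of 0.927, and KO30 mice from 0.207 to 0.989 CPM with a median of 0.399. WT5 mice had 2.65, 3.26, 3.69, 5.70 and 6.14 CPM, and KO5 mice ranged from 1.31 to 8.89 CPM with a median of 3.23. In WT 4 of 5 cold mice exceeded the highest WT30 mouse, and in KO all 7 exceeded the highest KO30 mouse. The corresponding log2 change was 1.98 (SE 0.52, adjusted p = 0.00141, edgeR) in WT and 3.27 (SE 0.55, adjusted p = 5.93e-06, edgeR) in KO. The larger KO value stood beside a lower thermoneutral mean in KO30, and the difference between the responses, 1.29 (SE 0.76), did not pass (adjusted p = 0.406, edgeR).

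Fgf21 and Gdf15 varied together among the KO5 mice, in which the order of the 7 mice was identical for both genes. Pearson's r of their log2 CPM was 0.968 (exact permutation p = 0.000198, the smallest this design can give, adjusted p = 0.0107 over 108 relations) and Spearman's rho was 1 (exact permutation p = 0.000397, adjusted p = 0.0214). The labels gave no batch within which to repeat it. Without the 2 mice farthest from the median of Fgf21, r was 0.983. At thermoneutrality the same pair had r = -0.311 (exact permutation p = 0.512, adjusted p = 0.919) and rho = -0.107 (exact permutation p = 0.840) in WT30, and r = 0.112 (exact permutation p = 0.817, adjusted p = 0.955) and rho = 0.143 (exact permutation p = 0.783) in KO30, at levels of a few reads per library. WT5, with 5 mice, was not examined. KO5 replicate 23 was highest for both genes and replicate 27 came next. These 2 mice had the lowest summed skeletal muscle markers of KO5, at 1.69 and 3.43 CPM. Replicate 25, which carried the most skeletal muscle marker RNA, at 7749 CPM, was lowest for both genes. The order was not the same throughout, since replicate 22, at 2654 CPM, stood above replicate 26, at 93.7 CPM, in both genes. The part of muscle RNA in this relation was not tested. Of the 36 pairs of the 9 genes in 3 groups of 7 mice, only Epdr1 with Pltp in WT30 also passed, with r = 0.934 (exact permutation p = 0.000198, adjusted p = 0.0107), rho = 1 (exact permutation p = 0.000397, adjusted p = 0.0214) and r = 0.911 without the 2 farthest mice.

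**Figure D2:**
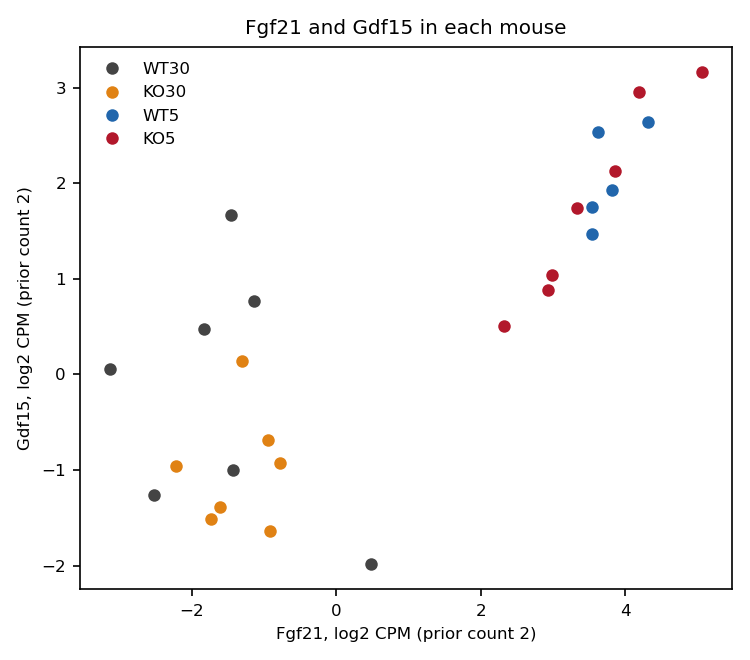
Log2 CPM with a prior count of 2 of Fgf21 (horizontal axis) and Gdf15 (vertical axis) in each mouse, coloured by group. The 7 KO5 mice lie along a rising line (r = 0.968 on this scale), while the thermoneutral mice form a cloud at low Fgf21.

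Il6 (ENSMUSG00000025746.11, chr5:30013114-30019981, plus strand), a cytokine made by many cells including brown adipocytes and leukocytes, was barely detected at thermoneutrality. The 7 WT30 libraries held 9 reads in total, with 3 libraries at 0, and the 7 KO30 libraries held 6, with 4 at 0. WT5 mice had 0.356, 0.472, 0.634, 0.676 and 1.46 CPM. KO5 mice had 0.179, 0.244, 0.484, 0.599, 0.775 and 1.68 CPM, and replicate 27 had 12.2 CPM, from 217 reads. All cold mice exceeded all thermoneutral mice of their genotype, but in KO the gap was between 0.179 and 0.175 CPM, from 3 reads in each of both libraries, and so rested on the scaling of equal counts. Il6 rose by 3.09 (SE 1.34, adjusted p = 0.0183, edgeR) in WT and 5.49 (SE 1.49, adjusted p = 2.61e-05, edgeR) in KO on the log2 scale, with errors over 1 on that scale.

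The Il6 values depended on single mice, and the mouse with the most Il6 also had the most neutrophil marker RNA. Without WT5 replicate 17 the WT change was 2.70 and missed the threshold (adjusted p = 0.0548, edgeR), and without KO5 replicate 27 the KO change was 3.65. Summed neutrophil markers (S100a8, S100a9, Ly6g, Csf3r, Cxcr2 and Mmp8) ranged from 2.06 to 6.47 CPM in WT30, 1.51 to 3.82 in KO30, 6.39 to 13.2 in WT5 and 5.68 to 70.7 in KO5. Ly6g was at 0 in all thermoneutral libraries. The highest sum was that of replicate 27, but KO5 replicate 26, with the next highest sum at 26.7 CPM, had only 0.244 CPM of Il6, and WT5 replicate 21, highest of WT5 in the sum, had 0.634 CPM. With cold, 4 of the 5 neutrophil markers tested rose in WT and 5 in KO, where 31.6% and 33.7% of all genes did. With the neutrophil sum as a covariate, the Il6 changes were 1.13 (adjusted p = 0.241, edgeR) in WT and 1.4 (adjusted p = 0.236, edgeR) in KO. Since the markers rose with cold themselves, the temperature and the neutrophil sum cannot be fully told apart in that fit.

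Nrg4 (ENSMUSG00000032311.17, chr9:55220222-55326844, minus strand), an epidermal growth factor-like ligand released by brown adipocytes, was by far the most abundant of the 9 and changed least among those that passed. It ranged from 175 to 234 CPM in WT30 (median 209) and from 193 to 211 CPM in KO30 (median 210). The WT5 mice had 214, 237, 240, 244 and 245 CPM, and the KO5 mice ranged from 211 to 249 CPM with a median of 240. In WT 4 of 5 cold mice exceeded the highest WT30 mouse, and in KO 6 of 7 exceeded the highest KO30 mouse, by small margins. Nrg4 rose by a log2 value of 0.19 (SE 0.06, adjusted p = 0.0115, edgeR) in WT and 0.18 (SE 0.06, adjusted p = 0.00895, edgeR) in KO. With library size alone it was 0.06 in WT (adjusted p = 0.618, edgeR) and -0.14 in KO (adjusted p = 0.203, edgeR), but that scaling moved the median of all genes from -0.01 to -0.14 in WT and from -0.03 to -0.34 in KO. Relative to that median, Nrg4 was 0.20 higher in WT and 0.20 to 0.21 higher in KO under either scaling. The WT call was lost with only the groups compared in the fit (0.15, adjusted p = 0.0796, edgeR). The KO call was lost without KO30 replicate 8 (adjusted p = 0.0527, edgeR) and with at least 10 counts required in every mouse (0.12, adjusted p = 0.0727, edgeR). Antisense Fbxo22 shares 368 of the 6075 exonic bases of Nrg4, and the long noncoding gene Gm15625 shares 177. The strand setting of the counting was not given in the sources used here, so the part of the Nrg4 count that came from these genes is uncertain.

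Metrnl (ENSMUSG00000039208.15, chr11:121701544-121716306, plus strand), the meteorin-like hormone linked to browning and alternative macrophage activation, rose in the cold mice of both genotypes. WT30 mice ranged from 6.26 to 8.17 CPM (median 7.03) and KO30 mice from 4.72 to 6.34 CPM (median 5.44). WT5 mice had 10.6, 12.4, 12.5, 13.8 and 14.6 CPM, and KO5 mice ranged from 9.81 to 17.8 CPM with a median of 13.2. Cold and thermoneutral mice did not overlap in either genotype. The log2 fold change was 0.85 (SE 0.11, adjusted p = 2.41e-07, edgeR) in WT and 1.31 (SE 0.10, adjusted p = 2.33e-11, edgeR) in KO, and it stayed between 0.80 and 0.91 in WT and between 1.23 and 1.37 in KO when any 1 mouse was left out.

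Epdr1 (ENSMUSG00000002808.6, chr13:19591706-19619927, minus strand), a secreted factor of thermogenic adipocytes in human cells, varied several-fold within each group. WT30 mice ranged from 1.56 to 6.42 CPM (median 2.10), KO30 mice from 1.05 to 3.48 CPM (median 2.17) and KO5 mice from 1.12 to 9.17 CPM (median 4.72). The WT5 mice had 2.86, 2.96, 3.18, 5.70 and 8.30 CPM. Cold and thermoneutral mice overlapped in both genotypes. For Epdr1 the log2 fold change was 1.05 in KO (SE 0.39, adjusted p = 0.0208, edgeR) and 0.69 in WT (SE 0.42, adjusted p = 0.150, edgeR). The KO call was lost without KO5 replicate 25 (0.76, adjusted p = 0.0840, edgeR), with library size alone (0.65, adjusted p = 0.155, edgeR) and with the neutrophil sum as a covariate (1.15, adjusted p = 0.117, edgeR). Without WT30 replicate 7 the WT change was 1.03 and passed (adjusted p = 0.0285, edgeR).

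The mice highest in Epdr1 were those with the most skeletal muscle RNA. The summed muscle markers (Acta1, Ckm, Myh4, Myh1, Mylpf, Tnnt3, Tnni2 and Pvalb, 8 of 8 with reads) ran from 6.88 to 5668 CPM in WT30, 4.31 to 1567 in KO30, 0.815 to 4932 in WT5 and 1.69 to 7749 in KO5. The top library of each group by this sum was also the top library of that group by Epdr1. The 3 genes whose pattern over the 26 mice was most like that of Epdr1 were Cacna2d1, Atp5g1 and Des, at root mean square differences of 0.38, 0.39 and 0.41 in log2 CPM centred on each gene's mean. None of the 8 muscle markers passed in any of the 5 comparisons, but their median log2 change with cold was 0.55 in WT and 1.38 in KO. With sums this widely spread within groups, the lack of calls does not show that muscle content was equal between groups. With the muscle sum as a covariate the Epdr1 change was 0.63 in WT (adjusted p = 0.0634, edgeR) and 1.03 in KO (adjusted p = 0.00188, edgeR).

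**Figure D3:**
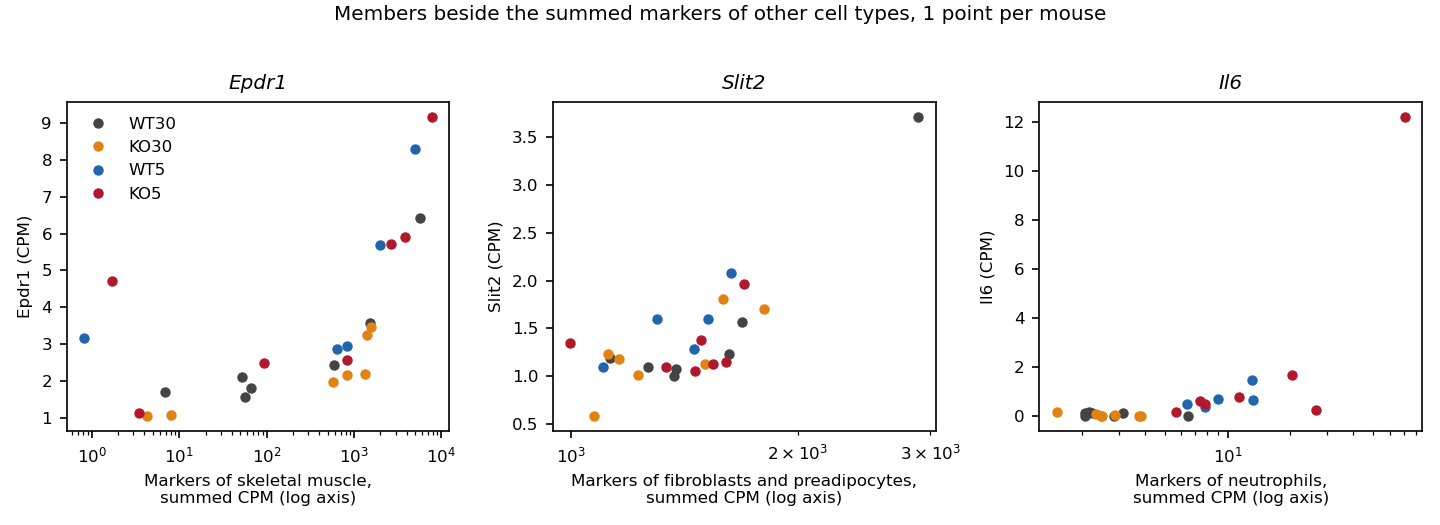
CPM (vertical axes, linear) of Epdr1, Slit2 and Il6 against the summed CPM of skeletal muscle, fibroblast and preadipocyte, and neutrophil markers (horizontal axes, log scale), 1 point per mouse, coloured by group. The libraries highest in each marker sum, at 7749, 2889 and 70.7 CPM, are also highest in Epdr1, Slit2 and Il6.

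Pltp (ENSMUSG00000017754.13, chr2:164839518-164857711, minus strand), the phospholipid transfer protein, fell with cold. WT30 mice ranged from 23.8 to 35.1 CPM (median 28.0) and KO30 mice from 23.2 to 27.7 CPM (median 25.7). The WT5 mice had 14.3, 15.2, 15.3, 15.9 and 19.1 CPM, and the KO5 mice ranged from 17.0 to 22.2 CPM with a median of 19.1. Every cold mouse lay below every thermoneutral mouse of its genotype. The log2 fold change was -0.81 (SE 0.09, adjusted p = 1.43e-08, edgeR) in WT and -0.40 (SE 0.08, adjusted p = 9.42e-05, edgeR) in KO. Antisense Ctsa, which encodes cathepsin A, shares 495 of the 2562 exonic bases of Pltp, and it also fell, by 0.38 on the log2 scale in WT (adjusted p = 9.2e-08, edgeR), so the split of reads between them is uncertain.

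Ptgds (ENSMUSG00000015090.13, chr2:25466709-25470046, minus strand), the lipocalin-type prostaglandin D synthase, fell as well. WT30 mice ranged from 3.81 to 7.80 CPM (median 5.04) and KO30 mice from 3.80 to 6.29 CPM (median 5.33). WT5 mice had 1.18, 1.72, 1.90, 2.08 and 2.96 CPM, and KO5 mice ranged from 2.00 to 5.92 CPM with a median of 2.53. In WT the groups did not overlap, and in KO 6 of 7 cold mice lay below the lowest KO30 mouse, the exception being replicate 26. The log2 fold change was -1.49 (SE 0.25, adjusted p = 1.16e-05, edgeR) in WT and -0.84 (SE 0.22, adjusted p = 0.00162, edgeR) in KO, and without replicate 26 the KO change was -1.12. The KO call was lost with the neutrophil sum as a covariate (-0.75, adjusted p = 0.0936, edgeR).

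Slit2 (ENSMUSG00000031558.15, chr5:47983138-48307733, plus strand), the Robo ligand, showed no call. It averaged 1.55 ± 0.97 CPM (SD, n = 7) in WT30, 1.23 ± 0.41 (n = 7) in KO30, 1.53 ± 0.37 (n = 5) in WT5 and 1.30 ± 0.32 (n = 7) in KO5, with all 4 groups overlapping. The log2 change with cold was -0.05 in WT (95% interval -0.65 to 0.56) and 0.08 in KO (95% interval -0.50 to 0.65). The highest library, WT30 replicate 7 at 3.72 CPM, was also highest in summed fibroblast and preadipocyte markers, at 2889 CPM, where the other 25 libraries held between 997 and 1805 CPM. Without it the WT change was 0.34 (adjusted p = 0.194, edgeR).

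**Figure D4:**
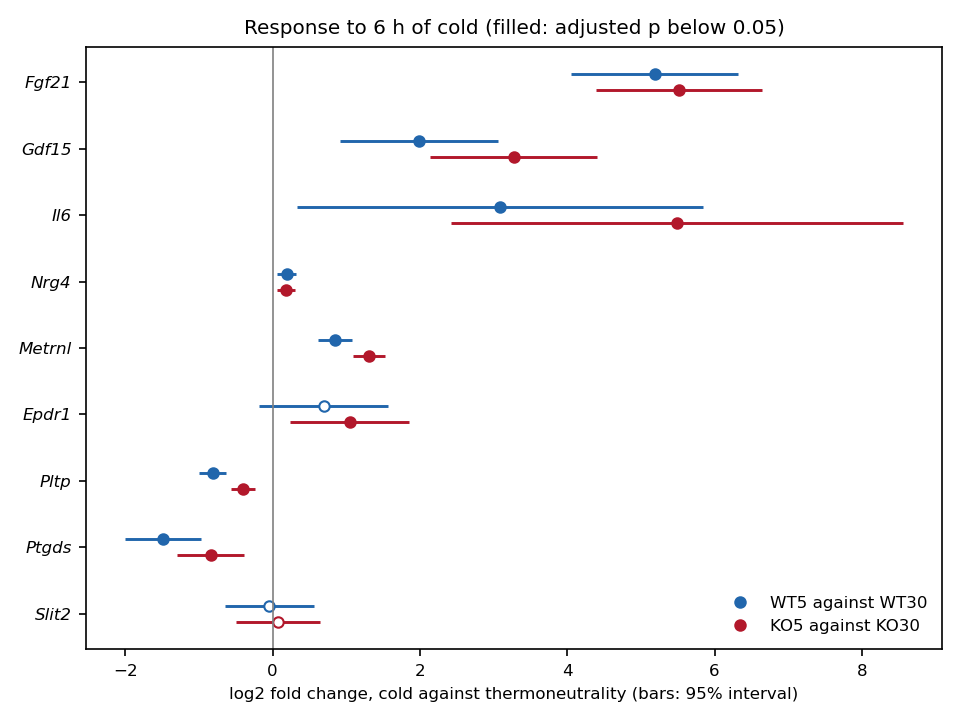
Log2 fold change of cold against thermoneutrality for each of the 9 genes in WT (blue) and KO (red), with 95% intervals. Filled points passed an adjusted p of 0.05. Fgf21 lies farthest from 0 in WT, at 5.18, and beside Il6 in KO, at 5.52 and 5.49, Pltp and Ptgds lie below 0, and both Slit2 intervals cross 0.

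Per kilobase of merged exons, which allows levels to be compared between genes, the order in WT30 was Nrg4 at 34.1 ± 3.34 CPM per kb (SD, n = 7), Pltp at 10.9 ± 1.43, Metrnl at 4.46 ± 0.49, Ptgds at 3.41 ± 0.90, Epdr1 at 1.02 ± 0.63, Gdf15 at 0.592 ± 0.549, Fgf21 at 0.354 ± 0.457, Slit2 at 0.061 ± 0.038 and Il6 at 0.031 ± 0.030. Nrg4 and Pltp lay clear of their neighbours in this order, and from Metrnl downward the mice of each pair of neighbours overlapped. Without WT30 replicate 7 Fgf21 was at 0.188 ± 0.136 CPM per kb (n = 6), and the order was the same. After cold in WT, Nrg4 was still first at 38.9 ± 2.12 CPM per kb (n = 5), and Fgf21 had moved from rank 7 to rank 2, at 14.5 ± 3.67. Metrnl at 8.06 ± 0.94, Pltp at 6.22 ± 0.72 and Gdf15 at 2.32 ± 0.83 followed, then Epdr1 at 1.68 ± 0.87, Ptgds at 1.19 ± 0.39, Il6 at 0.297 ± 0.179 and Slit2 at 0.060 ± 0.015. In this order the neighbours that overlapped were Metrnl and Pltp, Gdf15 and Epdr1, and Epdr1 and Ptgds. Fgf21 was also at rank 7 in WT30 and rank 2 in WT5 when the longest transcript or the coding length was used. The longest transcript kept the order of all 9 genes in both groups. By coding length Ptgds (9.93) stood above Metrnl (7.59) in WT30, and Epdr1 (6.85) above Gdf15 (4.72) in WT5. The values themselves depended on the length, with Nrg4 in WT30 at 98.8 by longest transcript and 600 by coding length.

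No call separated KO from WT. At thermoneutrality 0 of the 9 genes passed in edgeR, where 0.0810% of all genes did, and 2 of the 9 had an unadjusted p below 0.05, as did 7.65% of all genes. After cold 0 of the 9 passed, where 0.139% of all genes did, and 3 of the 9 had an unadjusted p below 0.05, as did 13.4%. In the test of whether the cold responses differed, 0 of the 9 passed, where 1.16% of all genes did, and 2 had an unadjusted p below 0.05, as did 16.2%. DESeq2 also called 0 of the 9 in both genotype comparisons and 1, Pltp, in the test of the responses, with no adjusted p given for Il6 in either genotype comparison and for Slit2 after cold. Of all genes, DESeq2 called 0.278% at thermoneutrality, 1.14% after cold and 2.82% in the test of the responses.

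The smallest unadjusted p at thermoneutrality was that of Metrnl. The mean was 7.08 ± 0.78 CPM (SD, n = 7) in WT30 and 5.37 ± 0.56 CPM (n = 7) in KO30, and 6 of 7 KO30 mice lay below the lowest WT30 mouse. The log2 difference was -0.40 (SE 0.11, adjusted p = 0.238, edgeR), and after cold it was 0.06 (SE 0.11, adjusted p = 0.859, edgeR). The difference between the responses was 0.46 (SE 0.15, adjusted p = 0.135, edgeR). Gdf15 was at 1.10 ± 1.02 CPM (n = 7) in WT30 and 0.431 ± 0.269 CPM (n = 7) in KO30, a log2 difference of -1.34 (SE 0.59, adjusted p = 0.587, edgeR), with every KO30 mouse inside the WT30 range.

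After cold the values of Pltp, Ptgds and Il6 were the farthest apart by unadjusted p. Pltp averaged 15.9 ± 1.84 CPM (SD, n = 5) in WT5 and 19.5 ± 2.17 CPM (n = 7) in KO5, and 3 KO5 mice exceeded the highest WT5 mouse. Its log2 difference was 0.29 (SE 0.09, adjusted p = 0.161, edgeR). The difference between its cold responses was 0.41 (SE 0.12), with an adjusted p of 0.0927 in edgeR and 0.0390 in DESeq2, so this call depended on the tool. Ptgds was higher in KO5 by 0.54 (SE 0.26, adjusted p = 0.363, edgeR), or by 0.26 without KO5 replicate 26. Il6 was higher in KO5 by 1.73 (SE 0.76, adjusted p = 0.320, edgeR), and the value was -0.11 without KO5 replicate 27, the mouse with the most neutrophil marker RNA.

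The remaining genotype differences had intervals of very different width. For Nrg4 the 95% interval ran from -0.14 to 0.11 at thermoneutrality and from -0.16 to 0.11 after cold, the narrowest of the 9. For Epdr1 it ran from -1.20 to 0.45 and from -0.88 to 0.83, and for Slit2 from -0.91 to 0.21 and from -0.85 to 0.39. At thermoneutrality the difference was -0.38 for Epdr1 and -0.35 for Slit2, and 0.00087 and 0.07 without WT30 replicate 7, while that of Fgf21 was -0.34, and 0.66 without it. Summed red blood cell markers were 417 to 684 CPM in WT5 and 517 to 1497 CPM in KO5. Between KO5 and WT5, 0 of the 5 markers passed, but all 5 had an unadjusted p below 0.05 (edgeR), as did 13.4% of all genes. The median log2 difference of the 5 was 0.93. With cold, 5 of the 5 passed as higher in KO and 0 in WT, where 33.7% and 31.6% of all genes did. The part of blood in the values of the 9 genes was not tested.

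**Figure D5:**
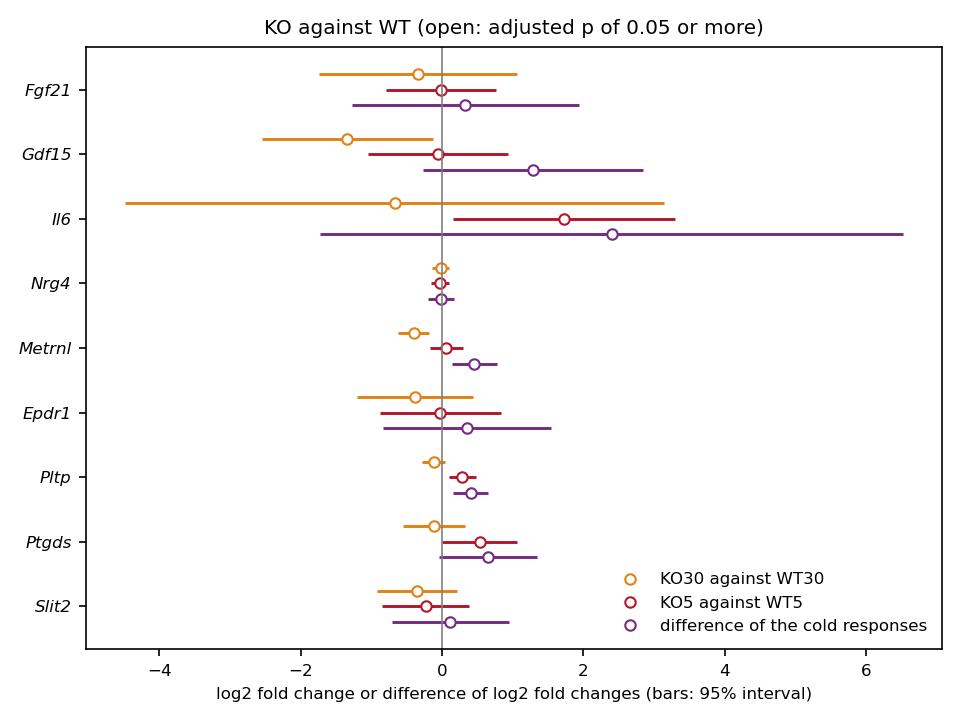
Log2 difference of KO from WT at thermoneutrality (orange) and after cold (red), and the difference of the cold responses (purple), for each of the 9 genes with 95% intervals. All points are open, since none passed an adjusted p of 0.05. The intervals of Nrg4 are narrow around 0, and that of Il6 at thermoneutrality spans -4.49 to 3.15.

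Among the receptors and coreceptors of these ligands, 10 of 14 were tested, and Gfral, Ptgdr, Ptgdr2 and Robo2 were too low. In WT 2 rose and 5 fell with cold, and in KO 4 rose and 4 fell. Over all genes tested, 65.0% passed in WT and 68.6% in KO. The ErbB receptors of the neuregulin family fell strongly: Erbb4 went from 32.8 ± 5.09 to 6.95 ± 1.64 CPM in WT, a log2 change of -2.23 (SE 0.17, adjusted p = 1.48e-11, edgeR), and Erbb3 fell by 1.93 (SE 0.20, adjusted p = 4.81e-09, edgeR). Kit, a receptor of Metrnl, went from 40.8 ± 10.8 to 6.27 ± 1.56 CPM in WT, a log2 change of -2.71 (SE 0.20, adjusted p = 1.44e-11, edgeR), and fell by 2.60 in KO. Il6ra rose by 0.60 (SE 0.17, adjusted p = 0.00293, edgeR) in WT and 0.99 (SE 0.16, adjusted p = 3.69e-06, edgeR) in KO. For Fgf21, Klb rose in KO by 1.20 (SE 0.22, adjusted p = 3.65e-05, edgeR) and was 0.25 (adjusted p = 0.384, edgeR) in WT, and Fgfr1 fell by 0.31 in WT (adjusted p = 0.00774, edgeR). None of the 10 passed in the test of whether the cold responses differed. For Nrg4, Kit and the ErbB receptors, a bulk count does not say which cells of the depot carried the transcript.

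Other secreted factors went both ways. Of 28 listed, 24 were tested, with 6 higher and 9 lower in WT and 7 higher and 8 lower in KO. These counts stand beside 65.0% of all genes tested passing in WT and 68.6% in KO. Leptin (Lep) fell most, from 254 ± 34.7 to 5.25 ± 3.12 CPM in WT, a log2 change of -5.61 (SE 0.40, adjusted p = 1.13e-10, edgeR), and adiponectin (Adipoq) fell by 0.77 (SE 0.11, adjusted p = 1.68e-06, edgeR). Bmp8b, which sensitises brown fat to adrenergic input, rose by 2.38 in WT (SE 0.31, adjusted p = 7.39e-08, edgeR), and the chemokine Cxcl14 by 1.98 (SE 0.32, adjusted p = 4.99e-06, edgeR). Lcn2, which neutrophils also make, rose by 3.63 in WT (SE 0.61, adjusted p = 4.12e-06, edgeR). Vegfa, the angiogenic factor, stood at 413 ± 57.3 CPM in WT30 and 378 ± 8.39 CPM in WT5 (adjusted p = 0.189, edgeR).

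Around Ptgds, 1 of 12 prostaglandin genes rose and 6 fell in WT, and 4 rose and 5 fell in KO. For the counts of this paragraph, the share of all genes passing was 65.0% in WT and 68.6% in KO. Ptgs1, the constitutive cyclooxygenase, fell by 1.15 in WT (SE 0.16, adjusted p = 6.02e-07, edgeR), Hpgds, the haematopoietic prostaglandin D synthase, by 0.72 (SE 0.15, adjusted p = 0.000125, edgeR), and Hpgd, which degrades prostaglandins, by 2.59 (SE 0.18, adjusted p = 2.03e-12, edgeR). Around Pltp, 4 of 10 genes of lipoprotein handling rose and 3 fell in WT, and 5 rose and 2 fell in KO. Lpl, the lipoprotein lipase, rose by 2.05 in WT (SE 0.12, adjusted p = 3.44e-14, edgeR) and the endothelial lipase Lipg by 3.16 (SE 0.17, adjusted p = 9.2e-15, edgeR), while Scarb1, a receptor for high density lipoprotein, fell by 1.39 (SE 0.10, adjusted p = 5.27e-12, edgeR). Around Slit2, 1 of 5 tested genes rose and 2 fell in WT and 2 rose and 1 fell in KO, and its relative Slit3 rose by 0.63 in KO (SE 0.18, adjusted p = 0.00352, edgeR).

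Of 12 transcription factors and coactivators linked to thermogenic or stress-induced transcription, 6 rose and 2 fell in WT, and 6 rose and 4 fell in KO. The share of all genes that passed was 65.0% in WT and 68.6% in KO. Ppargc1a, the coactivator of thermogenesis, went from 33.2 ± 6.49 to 559 ± 151 CPM in WT, a log2 change of 4.07 (SE 0.20, adjusted p = 5.21e-15, edgeR). Atf4, the activator of the integrated stress response, went from 77.6 ± 14.2 to 351 ± 21.7 CPM, a log2 change of 2.18 (SE 0.15, adjusted p = 1.92e-12, edgeR), and its target Atf3 rose by 1.68 (SE 0.49, adjusted p = 0.00345, edgeR). Ddit3, a stress-response gene of the same list, was not called in WT and was called lower in KO. Cebpb rose by 1.69 (SE 0.25, adjusted p = 1.05e-06, edgeR), while Ppara, the fatty acid sensor, fell by 1.17 (SE 0.12, adjusted p = 2.78e-09, edgeR) and Prdm16 by 0.66 (SE 0.15, adjusted p = 0.000459, edgeR). In these 6 lists no gene passed between KO and WT at either temperature, or in the test of the difference between responses.

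The genes most alike to each of the 9 were chosen by root mean square difference in centred log2 CPM over the 26 mice, among 14245 genes. The mice include the cold groups, so a like step with cold, or lack of one, was part of the choice. For Fgf21 they were Arntl, a core clock factor, at 0.71, Adam12 at 0.76 and Hmox1, the inducible haem oxygenase, at 0.78. For Gdf15 the nearest was Atf3 at 0.64, followed by Plk3 at 0.68 and Stc1 at 0.70, and for Il6 they were the neutrophil chemokine Cxcl2 at 0.49, Socs3 at 0.68 and Ccr1 at 0.69. Metrnl was closest to Txnl1, Mkks and Ftl1, at 0.16 to 0.17. Nrg4 was closest to Atg4b, Tmco1 and Pafah1b1, each at 0.10, where the spread of Nrg4 itself was only 0.13. Pltp was closest to Atxn10, Itm2b and Atp8a1 at 0.13 to 0.14, Ptgds to Gm13111, Abca2 and Lctl at 0.34 to 0.35, and Slit2 to Adamts12, Col6a3 and C2 at 0.26 to 0.28. A gene with low counts carries more noise into this measure, so the distances are not comparable between the 9 genes.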

How the data were processed

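Brown adipose tissue RNA of 26 mice was depleted of ribosomal RNA and sequenced by the authors from stranded libraries as 100-bp single-end reads. The deposited values are counts per gene, made by the authors with STAR 2.5.2b (mm10) and featureCounts 1.5.2 (GENCODE M13); the submitters' processing notes also name edgeR 3.22.0. The strand setting of the counting was not given in the sources used here. Libraries held 12705969 to 25732258 counts, and all columns were mapped to samples by their labels.

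Genes were named by Ensembl identifier from the GENCODE M21 annotation (50462 of 50686 matched). The counts were fitted in edgeR 4.0.16 (R 4.3.3; filterByExpr by group, TMM factors, 1 mean per group over all 26 mice, quasi-likelihood test), with Benjamini-Hochberg adjustment over all 17286 genes tested and a threshold of 0.05. Every adjusted p in the text marked edgeR comes from this test and one marked DESeq2 from its Wald test (version 1.42.0). Standard errors came from the quasi-likelihood dispersion. The fit was tested on simulated data. Relations between genes used exact two-sided permutation within groups of 7. Alternatives were other scalings, filters, tests and sets of mice, leaving out each mouse, and, chosen after seeing the data, marker sums as covariates.

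The 9 genes, the lists and the tests were chosen with earlier results of these data known. Named were the 9 genes, listed genes (called ones first), Afdn and Ucp1 as checks, and the 3 genes most alike to each of the 9 among genes with a mean of at least 1 CPM; the listed genes given in full were chosen after their values were seen, as were Fbxo22, Gm15625 and Ctsa, which overlap 2 of the 9. No 2 libraries of the same group agreed within counting noise (73 pairs compared). Each library was 1 mouse, and the tests between groups set a difference against the variation between mice.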

Additional observations from a re-analysis of the deposited data

Results flagged for a closer look

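In 10 of the 36 sets of values (9 genes in 4 groups), 1 mouse lay far from the others of its group by Dixon's 95% criterion. Its rate of about 1 in 20 by chance holds for independent, normally distributed values. The sets share the same mice and some hold few reads, so that rate is no measure of the excess here. WT30 replicate 7 was the highest of its group in 4 of the 10 sets, with 1.28 CPM of Fgf21, 6.42 CPM of Epdr1, 35.1 CPM of Pltp and 3.72 CPM of Slit2. The same library held the most skeletal muscle marker RNA of WT30 (5668 CPM), the most fibroblast and preadipocyte marker RNA of all 26 libraries (2889 CPM) and the most red blood cell marker RNA of WT30 (1120 CPM), and their part in the 4 values was not tested. KO5 replicate 27 was highest for Il6 at 12.2 CPM, beside a neutrophil marker sum of 70.7 CPM, and WT5 replicate 17 was highest for Il6 at 1.46 CPM, beside a sum of 13.1 CPM, where replicate 21 had a like sum of 13.2 CPM and 0.634 CPM of Il6.

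The other sets were Gdf15 in KO30, where replicate 10 was highest at 0.989 CPM, Nrg4 in WT5, where replicate 21 was lowest at 214 CPM, Ptgds in KO5, where replicate 26 was highest at 5.92 CPM, and Slit2 in KO5, where replicate 25 was highest at 1.97 CPM. Replicate 25 of KO5 also held the most skeletal muscle marker RNA of all libraries, at 7749 CPM, and the highest Epdr1, at 9.17 CPM. No difference between the cold responses of the genotypes passed for these 9 genes in edgeR.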

How the results depend on the processing

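Cold calls of Fgf21, Gdf15, Metrnl and Pltp held under every alternative in which they were tested. Of 5 higher in WT, 2 passed with at least 10 counts in every mouse, where Fgf21, Gdf15 and Il6 left the test (6 genes tested), and 3 with only the groups compared, where Il6 left it (8 tested) and Nrg4 lost its call. Of 6 higher in KO, 2 passed with at least 10 counts, where the same 3 genes left and Nrg4 lost its call. With library size alone 4 were higher in WT (Nrg4 lost) and 4 in KO (Nrg4 and Epdr1 lost), and with the neutrophil covariate 4 in WT (Il6 lost) and 4 in KO (Il6 and Epdr1 lost). The share of all genes called, in either direction, was 65.0% in WT and 68.6% in KO in the main fit. It was 70.9% and 73.4% with at least 10 counts, and 67.7% in WT with only the groups compared. With library size alone it was 60.2% and 67.1%, and with the neutrophil covariate 57.4% and 52.7%. DESeq2 called 1 gene higher (Pltp) in the test of the responses, where it called 2.82% of all genes. With the neutrophil covariate 1 of 2 stayed lower in KO, the Ptgds call being lost. The values that changed sign were mostly near 0. With library size alone, Nrg4 became -0.14 (cold in KO) and 0.13 (KO30 against WT30), Slit2 -0.27 (cold in KO) and -0.037 (responses), Pltp 0.016 and Ptgds 0.037 (KO30 against WT30). The median of all genes then moved from -0.02 to 0.13 (KO30 against WT30) and from 0.04 to -0.15 (responses). Fgf21 after cold (KO5 against WT5) became 0.0045 with DESeq2 size factors, 0.0066 with no filter and 0.0059 in DESeq2, and the Nrg4 difference of responses 0.0052, 0.0053 in DESeq2 and 0.020 with the neutrophil covariate. Nrg4 at thermoneutrality was 0.000225 with only the groups compared. With the neutrophil covariate Slit2 became -0.44 (cold in KO) and -0.067 (responses), Il6 -0.24 and Nrg4 0.0024 (both KO5 against WT5). With the muscle covariate Epdr1 was 0.0023 (KO5 against WT5). The cause was not tested. Leaving out 1 mouse gave 3 lost calls (Il6 in WT, Nrg4 and Epdr1 in KO) and 1 gained (Epdr1 in WT). It turned these ranges across 0: cold Slit2, -0.18 to 0.34 in WT and -0.057 to 0.16 in KO; KO30 against WT30, Fgf21 -0.52 to 0.66, Nrg4 -0.052 to 0.016, Epdr1 -0.53 to 0.00087 and Slit2 -0.45 to 0.068; KO5 against WT5, Fgf21 -0.41 to 0.16, Gdf15 -0.36 to 0.12, Il6 -0.11 to 2.12, Metrnl -0.020 to 0.12 and Epdr1 -0.30 to 0.30; responses, Fgf21 -0.66 to 0.51, Nrg4 -0.044 to 0.026, Epdr1 -0.018 to 0.68 and Slit2 -0.29 to 0.26. No paired analysis was possible because the groups share no replicate numbers. Depth limits Il6, Fgf21 and Gdf15 at thermoneutrality, where libraries held 0 to 3, 0 to 28 and 3 to 49 reads.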
